A study of Homo sapiens with 6 samples.

Results

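The aminoacyl-tRNA synthetase genes were followed after knockdown of the RNA helicase DDX17. The set was taken by gene symbol and held 36 members, 20 whose enzymes work in the cytosol and 16 whose enzymes work in mitochondria (symbols ending in 2), out of 29476 genes in the count table. All 36 were present, all 36 passed the filter on low counts, and 15615 genes were tested in all. They were taken by symbol and not by a measured value, although earlier results of these data were known when the set was chosen.

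An aminoacyl-tRNA synthetase joins an amino acid to the tRNA that carries its anticodon, so that the ribosome adds the right residue at each codon. Human cells keep separate nuclear-encoded enzymes for the cytosol and for mitochondria, except that GARS and KARS each supply both compartments from a single gene and that EPRS, a fused protein, charges both glutamate and proline tRNAs. Several cytosolic enzymes are held together in the multi-tRNA synthetase complex by the scaffold proteins AIMP1, AIMP2 and EEF1E1, and in amino acid shortage or endoplasmic reticulum stress the transcription factor ATF4 is known to induce a subset of the cytosolic genes.

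The libraries came from A549, a human lung adenocarcinoma cell line. A nontargeting siRNA (siCtrl, 3 libraries) was compared with an siRNA against DDX17 (siDDX17, 3 libraries), and polyadenylated RNA was sequenced from biological replicates. The genotype field of the labels calls the control a plasmid, whereas the titles and the study's methods give an siRNA. A harvest at 48 h is stated for the RT-qPCR samples, and the time for the sequenced cells is not given in the sources used here. Every siDDX17 library received the same single siRNA, so loss of DDX17 and any other effect of that siRNA cannot be told apart.

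Library totals ran from 30658136 to 39182371 counts. DDX17 itself stood at 177, 184 and 206 CPM (counts scaled to library depth with TMM factors) in siCtrl and at 32.1, 30.8 and 30.4 CPM in siDDX17, a change of -2.60 on the log2 scale (edgeR quasi-likelihood test, Benjamini-Hochberg adjusted p = 5.89e-11) that left the groups well apart. All 6 epithelial markers listed averaged above 1 CPM over the libraries of both groups. EPCAM did so through siDDX17, with 0.74, 1.08 and 0.83 CPM in siCtrl and 2.28, 2.22 and 2.21 CPM in siDDX17. The sum of the 6 markers was 8135 to 8930 CPM in siCtrl and 6579 to 7101 CPM in siDDX17. Of the 4 markers of alveolar type II cells, from which this line is held to derive, SFTPA1 was absent from the count table. Of the 3 present, 0 were above 1 CPM. The library siCtrl 1 stood apart from the other controls: its chi-square per gene was 20.4 against siCtrl 2 and 25.6 against siCtrl 3, whereas siCtrl 2 and siCtrl 3 differed by 5.83 and the siDDX17 libraries by 3.62 to 5.49. Results are therefore also given without siCtrl 1.

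The cytosolic genes were the more abundant group. Per length, as FPKM in siCtrl, the median was 32.1 over the cytosolic members and 7.1 over the mitochondrial members, beside 2.77 over all genes tested. The order began with AARS (alanine) at 84.9 ± 13.1 FPKM (SD, n = 3), followed by GARS (glycine), MARS (methionine) and KARS (lysine) at 70.4, 67.2 and 66.2 FPKM. HARS (histidine) was the lowest cytosolic member at 10.5 FPKM, and 5 mitochondrial members lay above it, led by IARS2 (isoleucine) at 31.3 and CARS2 (cysteine) at 25.7 FPKM. AARS2, the mitochondrial alanine enzyme, was the lowest at 2.03 FPKM. Of the 35 neighbouring pairs in this order, 25 had overlapping siCtrl ranges, so most neighbours could not be ranked.

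**Figure D1:**
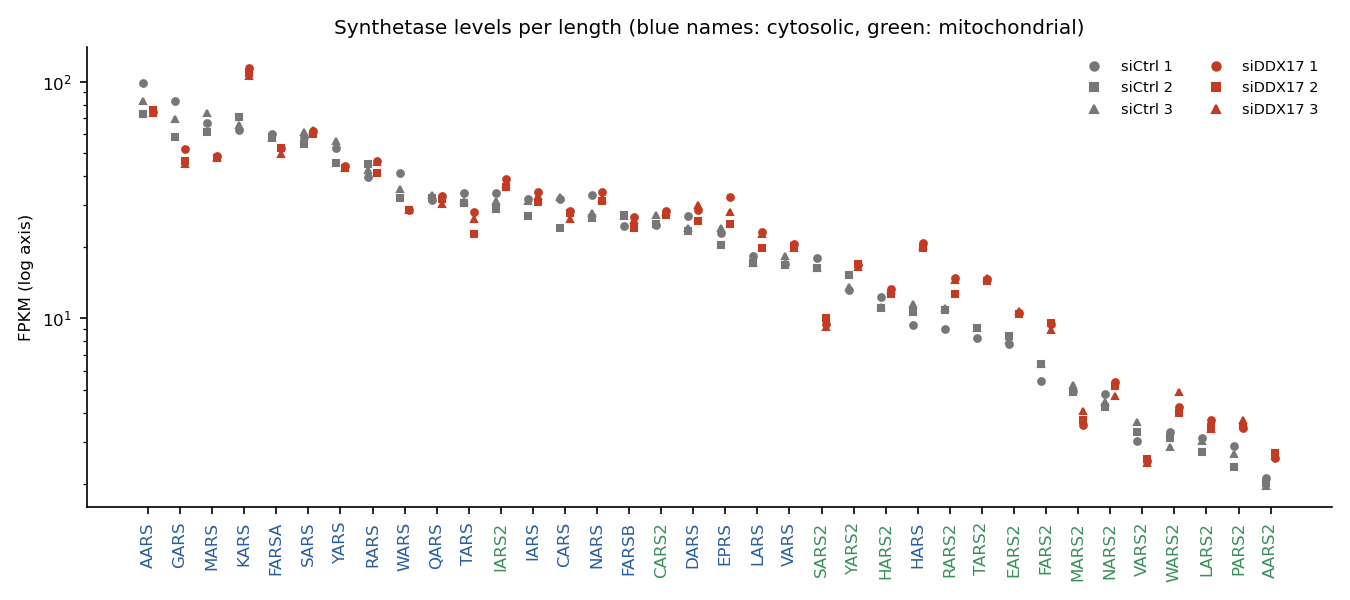
Level of each synthetase gene in every library in FPKM on a log axis, ordered by the siCtrl mean, with 1 point per library, grey for siCtrl and red for siDDX17. AARS stands highest at 84.9 FPKM and AARS2 lowest at 2.03 FPKM, and most cytosolic genes lie above most mitochondrial genes.

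Synthetase genes moved in both directions. Of the 20 cytosolic members, 4 rose and 8 fell in siDDX17 at an adjusted p under 0.05, and 8 did not pass. Of the 16 mitochondrial members, 7 rose, 3 fell and 6 did not pass. Over all genes tested, 24.5% passed upward and 24.3% downward, so the combined count of 11 upward and 11 downward among 36 was near that background in each direction, and the 22 of 36 that passed either way stood beside 48.8% of all genes. The median log2 fold change was -0.11 over the cytosolic and 0.13 over the mitochondrial members, beside 0.01 over all genes, and the single values ran from -0.69 to 0.82 and from -0.95 to 0.60. Of the 36 members, 0 changed 2-fold or more. When siCtrl 2, siDDX17 1 or siDDX17 3 was left out, 2 cytosolic members rose, and without siDDX17 3 the mitochondrial count of rises was 3.

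These medians depend on how libraries are scaled. With scaling by library size only, the median of all genes shifted by 0.12, the cytosolic median was 0.01 with 5 members up and 6 down, and the mitochondrial median was 0.25 with 10 up and 3 down. Relative to the shifted median of all genes, 0.13, the cytosolic members lay lower and the mitochondrial members higher under that scaling too. The study's own limits, an unadjusted p under 0.01 and a change of over 1.5-fold, were passed upward by HARS and KARS in the cytosol and by TARS2 in mitochondria, and downward by GARS, MARS and SARS2. Over all genes those limits were passed in this fit by 11% upward and 8.03% downward, 19% in all. The study itself reported fewer genes in each direction from its own edgeR run at these limits. At this stricter limit 2 cytosolic members were up and 2 down, against 1 and 1 in mitochondria. Without siCtrl 1 the counts were 1 up and 1 down in the cytosol and 0 up and 2 down in mitochondria, and with library size only they were 2 up and 0 down and 2 up and 1 down.

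**Figure D2:**
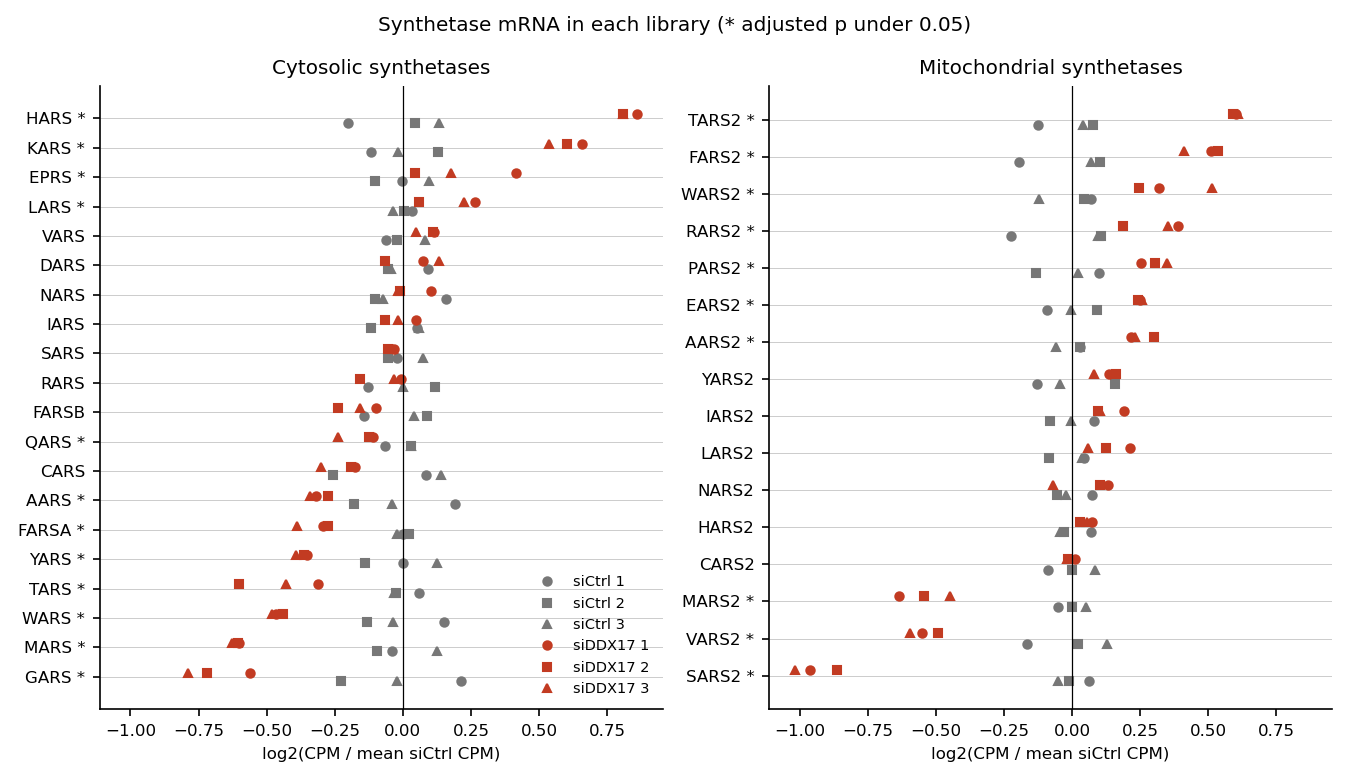
Difference of each library from the siCtrl mean on the log2 scale for all 36 synthetase genes, cytosolic and mitochondrial members in separate panels, with rows ordered by the log2 fold change and an asterisk at an adjusted p under 0.05. HARS, with a fitted log2 fold change of 0.82, tops the cytosolic panel, and SARS2, at -0.95, ends the mitochondrial panel, each with its 3 siDDX17 points (red) far from its siCtrl points (grey).

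HARS, which charges histidine tRNA in the cytosol, had the largest rise of the 36. It stood at 51.2, 60.8 and 64.6 CPM in siCtrl and at 107, 103 and 102.9 CPM in siDDX17, with every siDDX17 library above every control. The log2 fold change was 0.82 ± 0.08 (SE), with an edgeR adjusted p of 1.43e-06, and it was 0.72 without siCtrl 1. Its mitochondrial counterpart HARS2 lies head to head with it on chromosome 5, and read 32.8, 30.6 and 30.3 CPM in siCtrl and 32.9, 31.9 and 32.4 CPM in siDDX17. The groups overlapped for HARS2, whose change of 0.05 did not pass (edgeR adjusted p = 0.527). The RefSeq start sites of this pair lie 85 bases apart, so 184 of the 300 bases of the HARS promoter window also belong to the HARS2 window, on the other strand. The window is shown because these neighbours share it and moved by different amounts. It runs 5′ to 3′ on the HARS strand from 250 bases before to 50 bases after the start (RefSeq, GRCh38.p14), with the shared bases in capitals.
HARS chr5:140691321-140691620 (minus strand): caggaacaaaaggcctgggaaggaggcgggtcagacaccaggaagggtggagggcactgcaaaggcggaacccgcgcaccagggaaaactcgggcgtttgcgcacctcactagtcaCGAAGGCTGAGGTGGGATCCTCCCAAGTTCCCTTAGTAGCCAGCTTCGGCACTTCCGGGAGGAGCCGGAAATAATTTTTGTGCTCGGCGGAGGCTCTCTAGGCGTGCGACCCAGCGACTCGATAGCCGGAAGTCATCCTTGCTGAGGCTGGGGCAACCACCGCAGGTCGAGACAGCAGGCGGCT

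The ratio of HARS to HARS2, per length, was 0.916 in siCtrl and 1.56 in siDDX17. In the annotation HARS shares 1090 exonic bases with WDR55 and 108 with HARS2, both on the opposite strand, and whether strand was used in counting is not given in the sources used here. WDR55 gave a log2 fold change of -0.09 and did not pass (edgeR adjusted p = 0.28). HARS2 shares 152 exonic bases on its own strand with ZMAT2, whose mean count was 2.49 times that of HARS2. ZMAT2 gave -0.03 and did not pass (edgeR adjusted p = 0.771). How reads in the shared bases were assigned is not given, so the value of HARS2 is uncertain to that extent.

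KARS, which charges lysine tRNA in both compartments, was the other cytosolic member to rise by over 1.5-fold. Its values were 162, 192 and 174 CPM in siCtrl and 278, 268 and 255 CPM in siDDX17, a log2 fold change of 0.60 ± 0.07 (SE; edgeR adjusted p = 8.62e-06). The groups were far from touching, and the change was 0.53 without siCtrl 1. EPRS, for glutamate and proline, rose by 0.22 from 123, 115 and 131 CPM to 164, 127 and 139 CPM (edgeR adjusted p = 0.046), with overlapping groups. LARS, for leucine, rose by 0.19 from 93.6, 91.7 and 89.2 CPM to 109.9, 95.3 and 107 CPM (edgeR adjusted p = 0.0256), and its groups did not overlap. Both small rises missed the threshold when siCtrl 2, siDDX17 1 or siDDX17 3 was left out. LARS also missed it without siCtrl 3, and EPRS also missed it with RLE scaling.

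KARS, EPRS and LARS belong to the multi-tRNA synthetase complex. Over its 8 enzymes in the set, 3 rose, 2 fell (MARS and QARS) and 3 did not pass, with a median of 0.02 (1 rise when siCtrl 2, siDDX17 1 or siDDX17 3 was left out, 3 falls without siCtrl 1 and 1 fall without any other library), whereas among the 12 cytosolic members outside the complex 1 rose, 6 fell and 5 did not pass, with a median of -0.27. The complex's scaffold genes, which are not synthetases, did not share a direction: AIMP1 rose by 0.45 (edgeR adjusted p = 9.93e-05), EEF1E1 fell by 0.37 (edgeR adjusted p = 0.0059) and AIMP2 gave -0.12 without passing. The difference between the members inside and outside the complex was not tested.

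GARS, the glycine enzyme of both compartments, had the largest fall among the cytosolic members. It read 236, 174 and 200.5 CPM in siCtrl and 138, 123 and 118 CPM in siDDX17, a log2 fold change of -0.69 ± 0.09 (SE; edgeR adjusted p = 5.34e-05). All siDDX17 libraries lay below all controls, and the change was -0.58 without siCtrl 1, the highest control. MARS, which charges both the initiator and the elongator methionine tRNA, read 207, 199 and 233 CPM in siCtrl and 140.4, 140.1 and 138 CPM in siDDX17. That was a change of -0.61 ± 0.06 (SE; edgeR adjusted p = 4.21e-06), and -0.64 without siCtrl 1. MARS shares 355 exonic bases on the opposite strand with the stress gene DDIT3, whose mean count over all libraries was 0.200 times that of MARS. DDIT3 itself ran from 6.70 to 124 CPM among the controls, and its part in the MARS value was not tested.

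The falls of the remaining cytosolic members were smaller. WARS, the tryptophan enzyme and a known interferon-induced gene, read 186, 153 and 163 CPM in siCtrl and 121, 123 and 120.0 CPM in siDDX17, a change of -0.46 (edgeR adjusted p = 0.000104). TARS, for threonine, read 165, 156 and 155 CPM and then 128, 105 and 118 CPM, a change of -0.44 (edgeR adjusted p = 0.000187). YARS, for tyrosine, read 182, 165 and 198 CPM and then 142, 141 and 138 CPM, a change of -0.37 (edgeR adjusted p = 0.000484). In none of these 3 genes did the groups overlap. FARSA, a subunit of the cytosolic phenylalanine enzyme, fell by 0.32 (edgeR adjusted p = 0.00035), while FARSB, the other subunit, gave -0.16 and did not pass (edgeR adjusted p = 0.0608; -0.24 without siCtrl 1, where it passed). AARS fell by 0.31 from 368, 284 and 313 CPM to 258, 266 and 254 CPM (edgeR adjusted p = 0.00543), and by 0.22 without siCtrl 1, its highest control. It did not pass with scaling by library size only, where its change was -0.19. QARS, for glutamine, fell by 0.16 (edgeR adjusted p = 0.0397) and lost that call under 12 of the 15 alternatives run.

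The cytosolic members that did not pass were CARS (cysteine), DARS (aspartate), FARSB, IARS (isoleucine), NARS (asparagine), RARS (arginine), SARS (serine) and VARS (valine). Their log2 fold changes lay between -0.22 for CARS and 0.09 for VARS. For SARS the libraries read 121, 119 and 129 CPM in siCtrl and 120.2, 118 and 120.1 CPM in siDDX17, and the 95% interval of its log2 fold change ran from -0.15 to 0.07. CARS lay nearest to the threshold (edgeR adjusted p = 0.0511) and passed without siCtrl 1.

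ATF4 binds C/EBP-ATF response elements (CARE, TGATGCAA on either strand), and these letters were sought because earlier results of these data had shown ATF4 target genes to differ among the control libraries. RefSeq promoter windows (GRCh38.p14) were matched for 30 members, 16 cytosolic and 14 mitochondrial. Some members had more than 1 window, with 39 windows in all. The 8 letters stood in the windows of 6 members, all cytosolic, and in 1.09% of 27167 genes with windows. The matches began -187 bases from the start in AARS, -2 in CARS, -13 in IARS, -4 in MARS, 15 in NARS and 3 in TARS. In 5 of them the letters therefore lay close to the start. Each is shown 5′ to 3′ on the gene's strand with up to 40 bases on either side and the match in capitals.
AARS chr16:70289646-70289733 (minus strand): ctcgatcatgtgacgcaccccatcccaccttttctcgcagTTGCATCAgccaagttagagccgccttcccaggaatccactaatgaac
CARS chr11:3057378-3057465 (minus strand): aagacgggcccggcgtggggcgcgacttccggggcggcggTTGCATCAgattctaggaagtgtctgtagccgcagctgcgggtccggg
IARS chr9:92293663-92293750 (minus strand): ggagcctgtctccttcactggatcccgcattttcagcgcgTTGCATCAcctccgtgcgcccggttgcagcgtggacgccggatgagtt
MARS chr12:57488024-57488111 (plus strand): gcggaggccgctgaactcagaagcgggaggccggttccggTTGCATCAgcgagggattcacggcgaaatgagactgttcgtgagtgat
NARS chr18:57621787-57621862 (minus strand): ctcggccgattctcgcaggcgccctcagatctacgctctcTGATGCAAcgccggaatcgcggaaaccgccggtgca
TARS chr5:33440927-33441014 (plus strand): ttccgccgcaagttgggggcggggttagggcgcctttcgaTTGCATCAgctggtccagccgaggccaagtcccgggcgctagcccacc

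Of these 6 genes, 0 rose, 3 fell (AARS, MARS and TARS) and 3 did not pass, with a median of -0.27. Among the 10 cytosolic members whose windows lacked the letters, 3 rose, 4 fell and 3 did not pass, with a median of -0.11. Without siCtrl 1 these medians were -0.20 and -0.17, so that the gap between them was narrower. The looser letters TGATGNAA, which include the exact ones, stood in 8 members and 4.47% of genes, with GARS and YARS2 as the additions. The GARS window that held the loose match is shown because this gene fell furthest among the cytosolic members. The loose match and the letters CCGGAAG of ETS factors, read here on the other strand, are in capitals.
GARS chr7:30594628-30594927 (plus strand): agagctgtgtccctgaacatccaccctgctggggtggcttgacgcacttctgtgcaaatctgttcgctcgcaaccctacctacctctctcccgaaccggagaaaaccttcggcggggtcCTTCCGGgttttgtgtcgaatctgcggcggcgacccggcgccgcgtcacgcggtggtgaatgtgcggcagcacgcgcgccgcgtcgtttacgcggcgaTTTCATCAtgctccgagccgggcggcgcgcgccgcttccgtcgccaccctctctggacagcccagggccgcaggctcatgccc
A match of letters does not show that a factor binds there.

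A list of 12 cytosolic members known to respond to ATF4 held 2 that rose, 6 that fell and 4 that did not pass, with a median of -0.27. The 8 other cytosolic members held 2 that rose (HARS and KARS), 2 that fell (FARSA and QARS) and 4 that did not pass, with a median of -0.01. Without siCtrl 1 the first list held 2, 7 and 3, with a median of -0.20, and the second 2, 4 and 2, with a median of -0.04. Without siCtrl 2, siDDX17 1 or siDDX17 3 the rises in the ATF4-responsive list, EPRS and LARS, numbered 0. For the background, 26.4% of the genes tested passed upward and 27% downward without siCtrl 1, 53.3% in all.

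The control library siCtrl 1 sat differently in these 2 lists. Against the mean of siCtrl 2 and siCtrl 3, its median log2 difference was 0.08 over the ATF4-responsive members, where it was the highest control in 6 of 12 and the lowest in 0. Over the other cytosolic members it was -0.13, with siCtrl 1 highest in 1 and lowest in 6 of 8. Among 24 genes of the integrated stress response, the pathway that acts through ATF4, siCtrl 1 was the highest control in 19 and lay 0.52 above the other controls at the median, and over all genes it was highest in 39.8%. That list holds genes that earlier results of these data had already shown to be high in siCtrl 1. Its counts were 1 up, 14 down and 9 not passing, with a median of -0.39, and 3, 14 and 7 with a median of -0.23 without siCtrl 1. The falls numbered 8 with library size only, 5 with limma on FPKM, 10 without siDDX17 2 or siDDX17 3, and 10 with DESeq2. ATF4 itself read 608, 485 and 379 CPM in siCtrl and 377, 375 and 363 CPM in siDDX17, so that the controls spread widely while siDDX17 did not. Its change in siDDX17 was -0.40 (edgeR adjusted p = 0.0139) and -0.23 without siCtrl 1. Of its targets past the 1.5-fold limit, MTHFD2, a mitochondrial folate enzyme, gave -1.81 (-1.44 without siCtrl 1), PSAT1, of serine synthesis, -0.80 (-0.75), STC2 -1.21 (-0.81), SESN2 -1.19 (-0.53), CHAC1 -2.63 (-1.50) and DDIT3 -1.93 (-0.72), all with an edgeR adjusted p of 0.0194 or less in all libraries. The groups overlapped in SESN2, CHAC1 and DDIT3. The library siCtrl 3 read 3.52 CPM for CHAC1 and 6.70 CPM for DDIT3, below every siDDX17 library. ASNS, the asparagine synthetase and a classical target, gave -0.06 and did not pass (edgeR adjusted p = 0.59). The rise in this list was that of ATF5, at 0.26 (0.23 without siCtrl 1). Without siCtrl 1, PCK2 at 0.75 and ATF3 at 0.41 also passed upward. The part of this stress program in the synthetase values was not tested.

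**Figure D3:**
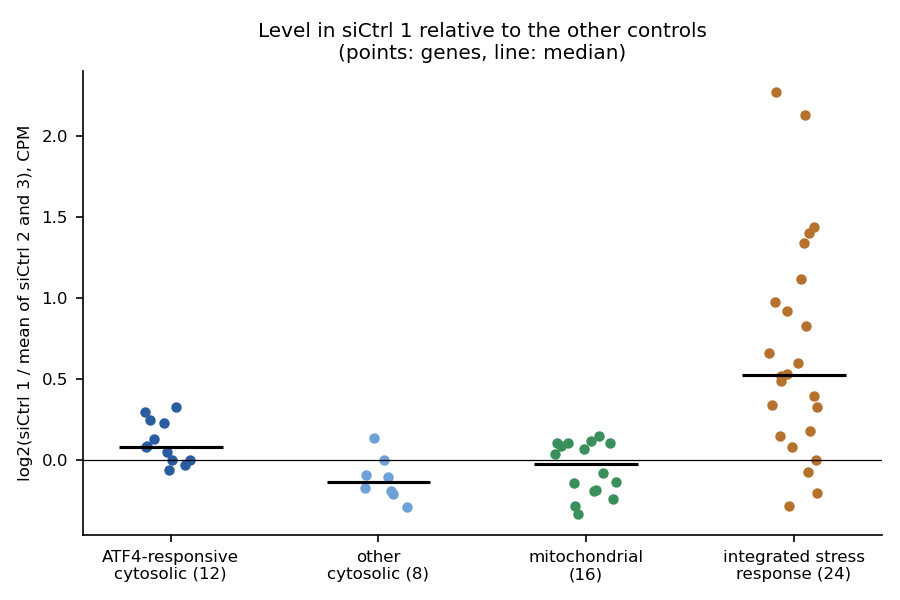
Log2 ratio of the CPM in siCtrl 1 to the mean of siCtrl 2 and siCtrl 3 for each gene (points), in the 12 ATF4-responsive cytosolic, 8 other cytosolic and 16 mitochondrial synthetase genes and in 24 integrated stress response genes, with a line at each median (0.08, -0.13, -0.02 and 0.52). The synthetase points lie between -0.33 and 0.33, while the stress response genes reach 2.27.

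In mitochondria, TARS2, which charges threonine tRNA there, had the largest rise. It read 24.7, 28.4 and 27.6 CPM in siCtrl and 40.8, 40.5 and 41.0 CPM in siDDX17, a log2 fold change of 0.60 ± 0.07 (SE; edgeR adjusted p = 9.29e-06). The siDDX17 libraries lay within 1 CPM of each other and above every control, and the change was 0.53 without siCtrl 1. FARS2, the single-chain phenylalanine enzyme of mitochondria, rose by 0.49 from 11.5, 14.1 and 13.8 CPM to 18.7, 19.1 and 17.5 CPM (edgeR adjusted p = 0.00057). WARS2, for tryptophan, rose by 0.37 from 10.1, 9.89 and 8.81 CPM to 11.96, 11.4 and 13.7 CPM (edgeR adjusted p = 0.007). In both genes the groups were apart, and without siCtrl 1 the changes were 0.39 and 0.40.

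The smaller mitochondrial rises were those of RARS2 (arginine, 0.31), PARS2 (proline, 0.30), EARS2 (glutamate, 0.25) and AARS2 (alanine, 0.25), with edgeR adjusted p values from 0.00441 to 0.0293. EARS2 charges both glutamate and glutamine tRNAs in mitochondria, the latter then being amidated by the GatCAB complex. It read 37.8, 42.9 and 40.2 CPM in siCtrl and 48.0, 47.7 and 48.2 CPM in siDDX17, with no overlap of the groups. PARS2 read 7.24, 6.15 and 6.86 CPM in siCtrl and 8.04, 8.34 and 8.59 CPM in siDDX17. RARS2 read 17.5, 22.1 and 21.9 CPM and then 26.8, 23.4 and 26.2 CPM, and its change was 0.20 without siCtrl 1, its lowest control. AARS2 missed the threshold under 7 of the 15 alternatives, PARS2 under 3, RARS2 under 2 and EARS2 under 0. WARS2 missed it under 1, without siDDX17 3. The mitochondrial members that did not pass were HARS2, IARS2, LARS2 (leucine), NARS2 (asparagine), YARS2 (tyrosine) and CARS2, with changes from -0.01 for CARS2 to 0.13. IARS2 passed without siCtrl 1 with a change of 0.16.

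SARS2, the mitochondrial serine enzyme, had the largest change of all 36 members. It read 42.6, 40.6 and 39.5 CPM in siCtrl and 21.0, 22.5 and 20.2 CPM in siDDX17, and the groups were far apart. The log2 fold change was -0.95 ± 0.07 (SE; edgeR adjusted p = 1.68e-07), and -0.92 without siCtrl 1. Its cytosolic counterpart SARS gave -0.04. In the annotation SARS2 shares 1492 exonic bases on its own strand with another gene in the count table, ENSG00000269547, whose mean count was 330 in siCtrl and 441 in siDDX17, a rise of 0.24 on the log2 scale (edgeR adjusted p = 0.0324). How reads in the shared bases were assigned is not given in the sources used here, so the value of SARS2 is uncertain to that extent. The promoter window of SARS2 is shown for comparison with the cytosolic genes above: it held neither form of the CARE letters, and the ETS letters, on the other strand, are in capitals.
SARS2 chr19:38930714-38931013 (minus strand): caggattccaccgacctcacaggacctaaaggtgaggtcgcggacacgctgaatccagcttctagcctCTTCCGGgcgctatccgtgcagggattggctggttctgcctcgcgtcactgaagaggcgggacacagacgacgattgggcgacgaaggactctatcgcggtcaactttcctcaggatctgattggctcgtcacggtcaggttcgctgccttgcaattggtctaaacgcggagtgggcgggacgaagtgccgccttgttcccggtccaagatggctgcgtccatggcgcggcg

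The 7-letter ETS match CCGGAAG stood in the windows of 16 of 30 members and in 12.1% of genes, 9 of the members being cytosolic and 7 mitochondrial. It was present in genes that rose (HARS, KARS and TARS2) and in genes that fell (GARS and SARS2). Of the other letters sought, CCAAT stood in 16 members and 39.8% of genes, CACGTG in 4 and 8.74%, TGACGTCA in 0 and 2.23%, and the NRF1 motif in MARS2 alone and 1.5% of genes. These are counts of letters on both strands in a window of 300 bases.

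VARS2 and MARS2, for valine and methionine, were the other mitochondrial members to fall. VARS2 read 13.2, 15.1 and 16.3 CPM in siCtrl and 10.1, 10.6 and 9.84 CPM in siDDX17, a change of -0.55 ± 0.09 (SE; edgeR adjusted p = 0.000288). MARS2 read 15.98, 16.5 and 17.2 CPM and then 10.7, 11.4 and 12.2 CPM, a change of -0.54 ± 0.08 (SE; edgeR adjusted p = 0.000116). In both genes every siDDX17 library lay below every control, and the changes without siCtrl 1 were -0.63 and -0.58.

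Over the 36 members the groups did not overlap in 23, with 3 cytosolic and 9 mitochondrial members higher and 8 and 3 lower in siDDX17. Over all genes tested 28.8% did not overlap upward and 27.7% downward, 56.5% in all. All 22 members that passed kept their sign and their call without siCtrl 1, and CARS, FARSB, RARS and IARS2, which did not pass in the full fit, passed without it. Without that library the cytosolic counts were 4 up, 11 down and 5 not passing, with a median of -0.16, and the mitochondrial counts were 8, 3 and 5, with a median of 0.15.

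When the genes were set side by side by amino acid, 17 pairs of a cytosolic and a mitochondrial gene could be formed, with EPRS and FARS2 used in more than 1 pair. Both genes passed in opposite directions in 4 pairs, for alanine, phenylalanine (FARSA), threonine and tryptophan, and in all 4 the cytosolic gene fell and the mitochondrial gene rose. Both passed in the same direction in 3 pairs, EPRS with EARS2, EPRS with PARS2, and MARS with MARS2. In 7 pairs exactly 1 gene passed, and in 3 neither did. Among all genes tested, 24.5% passed upward and 24.3% downward. How often pairs of arbitrary genes pass in opposite directions was not computed. Without siDDX17 3, where AARS2 and WARS2 missed the threshold, 2 pairs passed in opposite directions, and without siCtrl 1 there were 6. Pairs passing in the same direction numbered 1 without siCtrl 2, siDDX17 1 or siDDX17 3 and with RLE scaling, 2 without siDDX17 2, and 5 with limma on FPKM.

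The pair for threonine was the farthest apart among those with opposite calls. The ratio of TARS to TARS2, per length, was 3.64 in siCtrl and 1.75 in siDDX17. For tryptophan the ratio was 11.7 and then 6.62, for phenylalanine (FARSA to FARS2) 9.74 and then 5.53, and for alanine 41.7 and then 28.3. The cytosolic gene remained the more abundant in each of these pairs. For serine the ratio went the other way, from 3.43 to 6.43. The methionine pair, in which both genes fell, held a ratio of 13.4 in siCtrl and 12.8 in siDDX17.

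**Figure D4:**
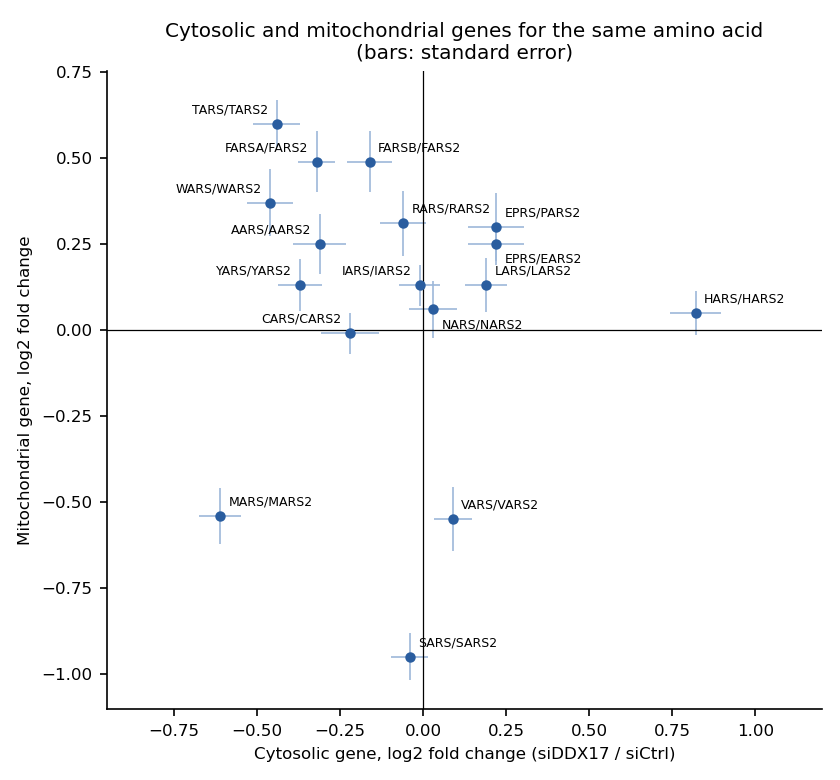
Log2 fold change of the mitochondrial gene (vertical) against that of the cytosolic gene (horizontal) for the 17 pairs that share an amino acid, with bars for the standard errors. TARS/TARS2 lies at the upper left at -0.44 and 0.60, MARS/MARS2 at the lower left at -0.61 and -0.54, and SARS/SARS2 at the bottom at -0.04 and -0.95.

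Summed over each group, the mean levels in CPM differed by less than 10%. The cytosolic members summed to 2831, 2625 and 2804 CPM in siCtrl and to 2615, 2472 and 2473 CPM in siDDX17, a difference of -8.47% in the mean, with the highest siDDX17 library below the lowest control. The mitochondrial members summed to 461, 467 and 469 CPM and then to 500.0, 488 and 486 CPM, 5.48% higher in the mean. For each sum the exact permutation test (two-sided) gave p = 0.1, the smallest that 3 libraries against 3 allow. In FPKM the cytosolic sum differed by -0.317% (exact permutation p = 1.0) and the mitochondrial sum 14.3% higher (exact permutation p = 0.1). As a log2 ratio, the cytosolic sum stood at -0.13 with TMM scaling, -0.14 with RLE, -0.10 with upper quartile scaling and -0.01 with library size only, and the mitochondrial sum at 0.08, 0.07, 0.11 and 0.20. The size of the cytosolic difference thus depended on the scaling used. In such bulk RNA a lower level can come from fewer transcribing cells or from less RNA per cell, which cannot be told apart.

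Among 21 other genes of tRNA charging and delivery, 7 rose, 7 fell and 7 did not pass, with a median of 0.06. The median was -0.02 without siCtrl 1, siCtrl 2 or siDDX17 3, and 0.18 with 10 up and 5 down with library size only. The genes past the study's limits had different roles. EEF1D, a subunit of the exchange factor that recharges the elongation factor delivering tRNAs, read 358, 448 and 406 CPM in siCtrl and 689, 732 and 686 CPM in siDDX17, a rise of 0.80 (edgeR adjusted p = 1.65e-06). GATB, a subunit of the mitochondrial GatCAB complex, read 21.4, 22.4 and 23.4 CPM and then 38.0, 36.7 and 37.2 CPM, a rise of 0.73 (edgeR adjusted p = 1.01e-06). Its partner subunit GATC fell by 0.45 (edgeR adjusted p = 5.29e-05), and QRSL1, the remaining subunit, gave -0.18 and did not pass.

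On the falling side, DTD2, a deacylase that removes wrongly joined residues from tRNA, read 19.3, 20.0 and 17.8 CPM in siCtrl and 8.59, 10.6 and 9.42 CPM in siDDX17, a change of -0.99 (edgeR adjusted p = 1.65e-06). XPOT, which exports tRNA from the nucleus, fell by 0.64 (edgeR adjusted p = 1.77e-05; -0.55 without siCtrl 1). AARSD1, an editing protein related to the alanine enzyme, fell by 0.60 (edgeR adjusted p = 2.95e-06). In all of these genes the groups were apart. TARSL2, another cytosolic threonine enzyme, rose by 0.53 (edgeR adjusted p = 0.00213), opposite to TARS. The mitochondrial elongation factors also split, with TUFM up by 0.32 and TSFM down by 0.30 (edgeR adjusted p = 0.000594 and 0.00258).

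Exons were shared with another annotated gene in 23 of the 36 members, on the opposite strand in 19, and in 10 the other gene had over 10% of the member's mean count. KARS shares 176 bases on the opposite strand with TERF2IP, whose change of 0.06 did not pass, and EARS2 shares 203 bases on its own strand with GGA2, which fell by 0.33 (edgeR adjusted p = 0.0029) while EARS2 rose. The part of shared exons in these values was not tested.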

How the data were processed

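Polyadenylated RNA of A549 cells was sequenced from a stranded library kit in 3 siCtrl and 3 siDDX17 libraries. Per the study's methods, the authors trimmed reads, aligned them to GRCh38 with TopHat2 and kept uniquely mapped reads. The counting program, the annotation release and the use of strand are not given in the sources used here. The authors deposited raw counts per gene and FPKM values, which the authors had scaled by depth and gene length. Replicates were not pooled, and 0 further columns of per-sample values were left out.

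From the deposited counts, all genes kept by filterByExpr (15615) were fitted with edgeR 4.0.16 (quasi-likelihood, TMM scaling, R 4.3.3), and p-values were adjusted by Benjamini-Hochberg over all of them. A gene passed at an adjusted p under 0.05. The limits stated in the methods, p under 0.01 and a change of over 1.5-fold, were applied to the same fit without adjustment. FPKM served for levels between genes, with limma 3.58.1 on log2(FPKM + 1) and log2(FPKM + 0.1) as alternatives, beside DESeq2 1.42.0, other scalings and filters, a replicate block and each library left out. Totals of 30658136 to 39182371 counts gave 176 to 12452 counts for each member in each library, and standard errors of its log2 fold change from 0.06 to 0.10. Sums were compared by exact permutation of libraries with scipy 1.17.1.

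Promoter windows came from RefSeq and exon overlaps from GENCODE 44, both on GRCh38. Members without a promoter window were DARS, LARS, VARS, YARS, AARS2 and VARS2. Values per library were given for members past the 1.5-fold limit, for up to 5 passing members with the largest rise and fall in each subgroup, and for HARS, HARS2, GARS and KARS. From the other lists, the genes past the 1.5-fold limit were named, and AARS, EARS2, EPCAM and further genes were added after their values were seen. The members and lists were chosen with earlier results of these data known. The fit was tested on simulated counts of 15422 genes. Of 50 genes changed 1.25-fold it called 16, of 48 changed 1.5-fold 29, of 50 changed 2-fold 44 and of 47 changed 3-fold 45. Beside these true calls stood 16 false calls. Only 200 genes were given a change there, whereas 48.8% of the genes tested passed in the data. Because the Benjamini-Hochberg cut depends on how many genes change, the shares called there do not carry over to these data. Of the 22 members that passed, 16 lay below 1.5-fold.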

Additional observations from a re-analysis of the deposited data

How the results depend on the processing

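Of the 22 members that passed, 14 passed with the same sign under all 15 alternative settings and 0 changed sign. The 8 that lost the call somewhere were AARS, EPRS, LARS, QARS, AARS2, PARS2, RARS2 and WARS2, and the causes were not tested. With scaling by library size only, the cytosolic median was 0.01, the mitochondrial median 0.25, the summed cytosolic log2 ratio -0.01 and the mitochondrial one 0.20, and 2494 genes fell. With limma on log2(FPKM + 1) and log2(FPKM + 0.1), the cytosolic median was 0.02 and 0.02, the mitochondrial median 0.25 and 0.26, 11 and 11 mitochondrial members rose, and 2369 and 2374 genes fell. Upper quartile scaling gave a mitochondrial median of 0.16 and a summed mitochondrial log2 ratio of 0.11. Summed FPKM gave -0.0046 (cytosolic) and 0.19 (mitochondrial). A minimum of 10 counts in every library gave a mitochondrial median of 0.14. Under the limits of the study's methods 1713 genes rose and 1254 fell, with 2 and 2 cytosolic and 1 and 1 mitochondrial members.

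Leaving out each library gave 2 to 4 cytosolic rises, 7 to 11 cytosolic falls and a cytosolic median of -0.16 to -0.08, and 3 to 8 mitochondrial rises, 3 to 3 falls and a median of 0.11 to 0.16. Over all genes it gave 3189 to 4220 rises and 3101 to 4312 falls, and the summed log2 ratio ran from -0.16 to -0.11 for cytosolic and from 0.06 to 0.08 for mitochondrial members.

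The replicate numbers shared by the groups did not pair the samples: the same-numbered libraries deviated with correlations of 0.01, 0.04 and -0.06. With the replicate number as a block, 3743 genes rose and 3738 fell, with 4 and 7 cytosolic and 7 and 3 mitochondrial members, and QARS was the only member to lose its call.

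Signs turned in 5 members that had not passed. IARS gave 0.02 (upper quartile), 0.11 (library size), 0.0016 (minimum of 10 counts), 0.12 and 0.12 (limma), and from -0.07 (without siCtrl 2) to 0.02 with a library left out, being above 0 without siCtrl 1 (0.0031), siCtrl 3 or siDDX17 2. NARS gave -0.03 without siCtrl 2 and -0.01 without siCtrl 3 or siDDX17 1. With library size only and limma, RARS gave 0.06, 0.07 and 0.07 and SARS gave 0.08, 0.09 and 0.09. CARS2 gave 0.02 (upper quartile), 0.12 (library size), 0.0045 (minimum of 10 counts), 0.03 (without siCtrl 3), 0.12 and 0.12 (limma).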
